A study of Mus musculus with 15 samples.

Results

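Cells of the MH-S line were given microrods made of calcium phosphate (CaP) or silica (SiO2), and the 6 libraries of both rod types were compared as 1 group with the 3 libraries of untreated cells (M0). These 9 libraries were taken from the 15 of the series by their labels, 3 for each of CaP, SiO2 and M0. MH-S is a mouse alveolar macrophage line transformed with a viral large T antigen, and every library came from 1 passage of it, grown in RPMI with serum. The rods, named CaP-Alg-Prot/CMC(3DL) and with the other mineral SiO2-Alg-Prot/CMC(3DL), are frameworks of mineral nanoparticles held together with alginate and coated with protamine and carboxymethyl chitosan. Each rod well received a separately prepared particle batch at 0.1 mg/mL for 24 h, and the M0 wells received neither rods nor a polarizing stimulus. The question was which genes responded to both particles. Both rods carry the same polymers, the minerals differ in density so that equal mass holds different numbers of rods, and not every cell takes up a rod, so responses to the mineral, to the polymers and to the act of uptake cannot be told apart in these bulk libraries.

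Macrophages engulf particles into phagosomes, which fuse with lysosomes and are acidified by the vacuolar proton pump (V-ATPase). Swallowed mineral can dissolve there or can damage the membrane, and galectins mark damaged vesicles. Macrophages also release chemokines that call in other leukocytes, and they are a main source of complement C1q, the recognition unit of the classical pathway, which tags particles and dying cells for uptake.

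The libraries held 8459643 to 39201265 counts in M0 and 12646926 to 50729211 counts with rods. In a principal component analysis of the 500 most variable genes, the first component held 71.9% of the variance. Its lowest scores were those of M0 replicate 3 (-62.3) and SiO2 replicate 2 (-34.5), so it did not part rods from M0. Those libraries also held the fewest counts (8459643 and 12646926). The highest score (27.1) was that of CaP replicate 1, with the most counts (50729211). Whether the component follows sequencing depth was not tested. Levels are given as CPM, the count relative to the scaled library size. Of the 12 general macrophage genes listed, 11 had enough counts to be tested, with at least 18173 counts of Lyz2 and 1530 of Csf1r in every library. Mertk had at most 6 counts in any library and was not tested. Genes of resident alveolar macrophages were present in part. Of the 30 listed, 16 had enough counts to be tested, and Lpl, Abcg1 and Cd9 had at least 3469, 3128 and 4541 counts in every library. Among the others, Chil3 and Ear2 had 0 counts in all 9 libraries, Siglecf at most 3 and Car4 at most 1. Marker lists of fibroblasts, epithelium and neutrophils summed to at most 0.235, 0.118 and 0.686 CPM in any library, those of lymphocytes and endothelium to at most 1.09 and 2.28 CPM. Dendritic cell markers summed to 17.9 to 23.1 CPM in M0 and 15.3 to 21.2 with rods. In the endothelial list, summed over 5 genes, the rod libraries (1.79 to 2.28 CPM) lay above M0 (0.705 to 1.25 CPM), and its part in the results was not tested. Of its 2 tested members, 1 was above M0 without overlap. This was Vwf, with 5 to 10 counts in M0 and 18 to 55 with rods. The other, Pecam1, had 1 to 27 and 3 to 36 counts. The share of counts in mitochondrially encoded genes was 1.32 ± 0.151% with rods (SD, n = 6) and 1.79 ± 0.355% in M0 (SD, n = 3), with p = 0.0476 from an exact two-sided permutation test in which 0.0238 is the smallest possible value. Without 1 rod library the p was between 0.0357, the smallest possible there, and 0.0714, and it stayed below 0.05 without CaP replicate 1 alone. Without 1 M0 library the test cannot go below 0.0714. Replicates of a group are separate wells of the same passage, so all p-values measure the spread between wells and particle batches only.

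Of 16621 genes tested, 86 were called (0.517%), with an edgeR quasi-likelihood adjusted p below 0.05 and a fold of more than 0.5 on the log2 scale (log2FC, rods over M0, given with its standard error SE). Of these, 55 were higher with rods (0.331% of the genes tested) and 31 lower (0.187%). Among them were genes of the lysosome and of bone-resorbing cells (Atp6v0d2, Ctsk), an elastase (Mmp12) and an interleukin-1 antagonist (Il1rn) on the higher side, and C1q, Ccr2 and Mrc1 on the lower side. In 85 of the 86 the rod libraries all lay on 1 side of the M0 libraries, the exception being Bdh2, which is named here for that reason. Over all genes tested, 3.93% had the 6 rod libraries above the 3 M0 libraries and 5.48% had them below, so the absence of overlap alone was far more common than a call. It was also a condition for naming genes by the size of their change, so for those genes it adds no support. The median absolute log2 fold change of the called genes, which the fold threshold selects for, was 1.42. Of the 86, 73 changed by at least 2-fold (46 higher and 27 lower). The signed median log2 fold change of all genes was 0.02, a different measure that does not compare with the absolute one. In bulk RNA a lower level can mean fewer cells that express a gene or less RNA in each, and these cannot be told apart.

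The number of called genes depended on the test and on single libraries. At an unadjusted p below 0.05 there were 2840 of the 16621 genes tested. DESeq2 called 640 of the 16621 (300 higher and 340 lower), which included 83 of the 86. The list counts given below at these 2 criteria are to be read beside these shares of all genes. Without M0 replicate 1 edgeR called 5 genes, without M0 replicate 2 it called 334 (102 higher and 232 lower) and without M0 replicate 3 it called 14. Without CaP replicate 1, 2 or 3 the numbers were 389, 44 and 16, and without SiO2 replicate 1, 2 or 3 they were 13, 16 and 14. Without a rod term 86 genes were called again (45 higher and 41 lower), of which 66 were the same, and without a filter on low counts 87 were higher and 101 lower. In the 85 called genes without overlap between rods and M0, leaving out 1 library could hardly change the sign. Every one of the 86 genes kept its sign in all 9 repeats without 1 library. Of the 44 called genes that met the rule for naming, 4 were called in all 9 of these repeats (Atp6v0d2, Lims2, Rgs1 and C1qb), 7 in 7 or 8 of them (Mmp12, Serpinb1a, Aif1, Gdf15, Il1rn, Tgfbi and Spink5) and 33 in 1 to 4. The highest adjusted p of the repeats came without M0 replicate 1 in 38 of the 44.

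**Figure D1:**
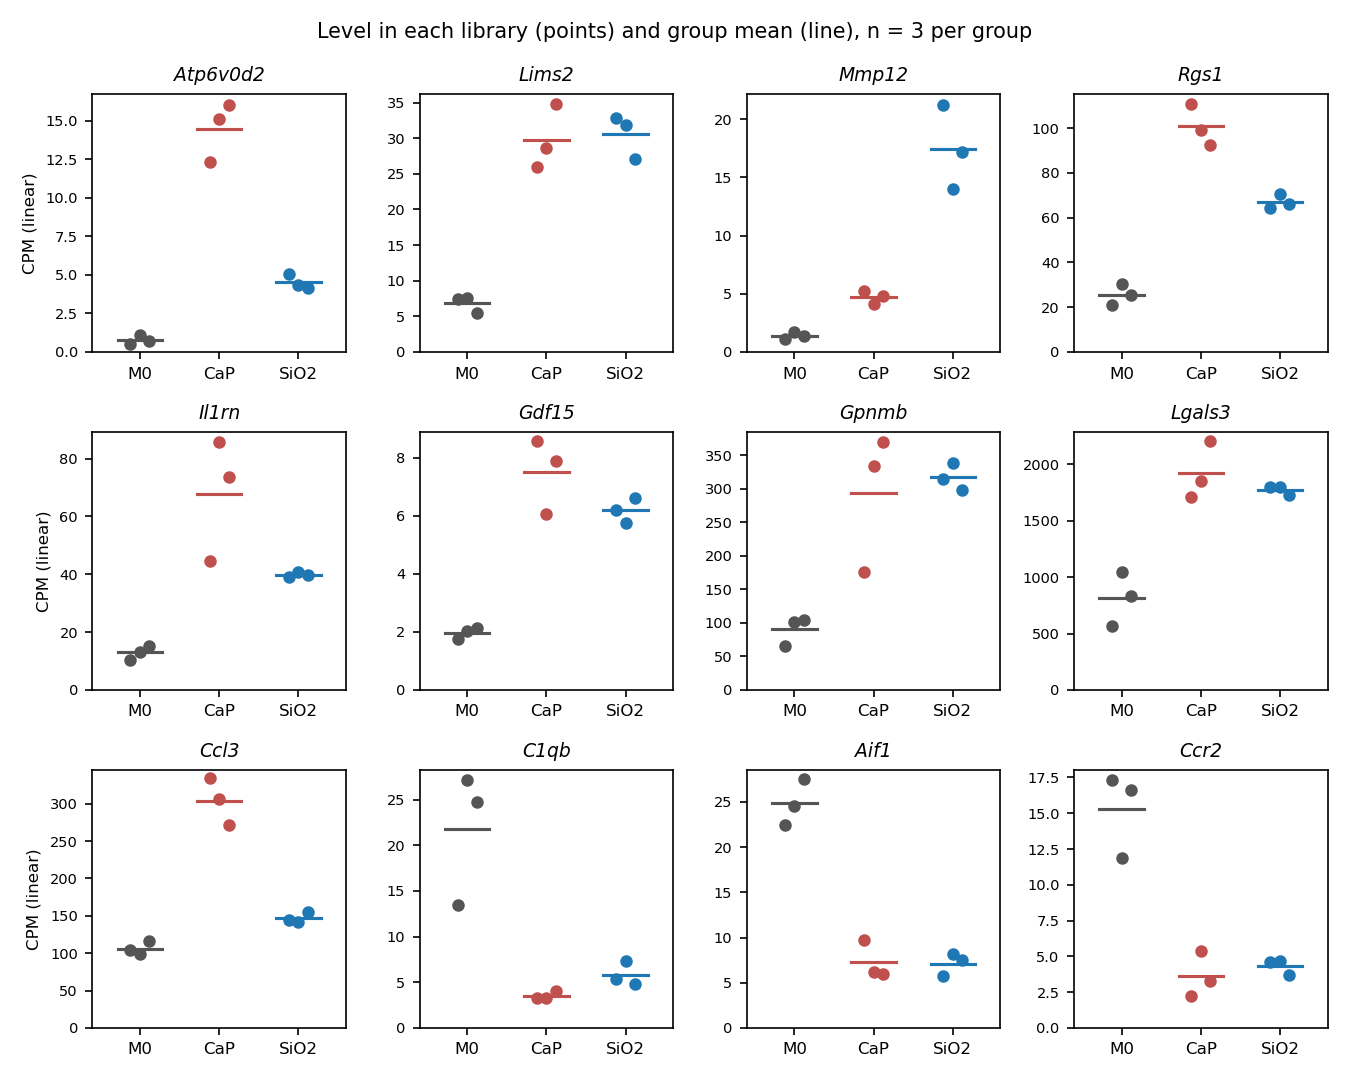
Level of 12 genes in CPM (linear axes starting at 0) in each M0, CaP and SiO2 library, with the mean of 3 libraries as a line. In every panel the 6 rod libraries lie on 1 side of the 3 M0 libraries. Mmp12 is highest with SiO2 (14 to 21.2 CPM) and Atp6v0d2 with CaP (12.3 to 16 CPM).

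Atp6v0d2 encodes a d subunit of the V-ATPase membrane sector that is abundant in osteoclasts and alveolar macrophages. It measured 0.534, 1.12 and 0.705 CPM in M0, 12.3, 15.1 and 16 CPM with CaP, and 5.06, 4.37 and 4.18 CPM with SiO2. All rod libraries were above all M0 libraries, and the CaP libraries were above the SiO2 libraries. The pooled log2FC was 3.45 (SE 0.28, edgeR-adjusted p = 0.00293), with 4.29 for CaP and 2.62 for SiO2 each against the same M0 libraries. Without 1 library it stayed between 3.05 and 3.81, with an adjusted p of at most 0.0279. Of the 19 V-ATPase subunits tested, Atp6v0d2 was the one called. Among the other 18, Atp6v0a1 had a log2FC of 1.02 (SE 0.26) and its constitutive counterpart Atp6v0d1 one of 0.86 (SE 0.26), both called by DESeq2 and not by edgeR. The median over the 19 was 0.30, beside 0.02 over all genes, with 0.30 for CaP and 0.38 for SiO2, and 10 of the 19 had an unadjusted p below 0.05, all in the higher direction. The summed level of the list was 2640 to 3340 CPM in M0 and 3540 to 3730 CPM with rods, without overlap.

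Ctsk encodes cathepsin K, the collagen-degrading protease of osteoclasts. Its counts in M0 were 3, 1 and 2, at the floor of 3 counts, against 51, 14 and 28 with CaP and 15, 8 and 15 with SiO2. The 6 rod libraries measured 0.602 to 1.06 CPM. Relative to the scaled library sizes, the 131 counts with rods were 8.3 times the 6 counts in M0, with an exact 95% interval from 3.71 to 23 that covers counting error only, and the adjusted p was 0.023 from edgeR. The call was kept in 4 of 9 repeats without 1 library, with the highest adjusted p of 0.304 without M0 replicate 1. DESeq2 gave no adjusted p for Ctsk and did not call it. Among 12 osteoclast-type genes tested, Ctsk and Atp6v0d2 were called by edgeR. The fusion receptor Dcstamp had a log2FC of 0.74 (SE 0.19), was called by DESeq2 and did not pass in edgeR.

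Of 43 lysosomal hydrolases and membrane proteins, Ctsk was the one called, and the list had a median log2FC of 0.31 (0.27 for CaP and 0.31 for SiO2). At an unadjusted p below 0.05 there were 17, of which 14 were in the higher direction. Cathepsin D (Ctsd), an aspartic protease, measured a mean of 180 CPM in M0, 436 with CaP and 416 with SiO2, and its log2FC of 1.24 (SE 0.27) was called by DESeq2 and not by edgeR. Cathepsin B (Ctsb) measured 711, 1350 and 1530 CPM and was likewise called by DESeq2 alone. Ctsh (66.1 CPM in M0, 40.3 with CaP and 44.9 with SiO2) and Ctsc (445, 296 and 347 CPM), which encode aminopeptidase cathepsins, had log2FC values below 0 of -0.63 and -0.47. The list thus held members in both directions, and its summed level was 5230 to 7640 CPM in M0 and 6680 to 9690 CPM with rods, ranges that overlap.

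Of 30 autophagy and lysosome-stress genes, 2 were called, both higher. The summed level of the list was 2400 to 3140 CPM in M0 and 4110 to 4790 CPM with rods, without overlap. Gpnmb, a lysosomal glycoprotein of lipid-laden and particle-laden macrophages, measured 65.4, 101 and 104 CPM in M0, 176, 334 and 370 CPM with CaP and 315, 339 and 298 CPM with SiO2. All rod libraries were above M0, CaP replicate 1 being the lowest of them. The log2FC was 1.76 (SE 0.26, edgeR-adjusted p = 0.0254), with 1.71 for CaP and 1.82 for SiO2. Lgals3, which encodes galectin-3 and binds sugars exposed on ruptured vesicles, measured 571, 1050 and 831 CPM in M0 and between 1710 and 2210 CPM with rods, with a median of 1800. The groups did not overlap, and the log2FC was 1.18 (SE 0.19, edgeR-adjusted p = 0.0349). Each of these 2 calls was kept in 2 of 9 repeats without 1 library, with adjusted p-values up to 0.149 without M0 replicate 1 for Gpnmb and 0.132 without M0 replicate 3 for Lgals3. The autophagy receptor Sqstm1 had a mean of 137 CPM in M0, 271 with CaP and 258 with SiO2, a log2FC of 0.95 (SE 0.25) that DESeq2 called and edgeR did not.

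**Figure D2:**
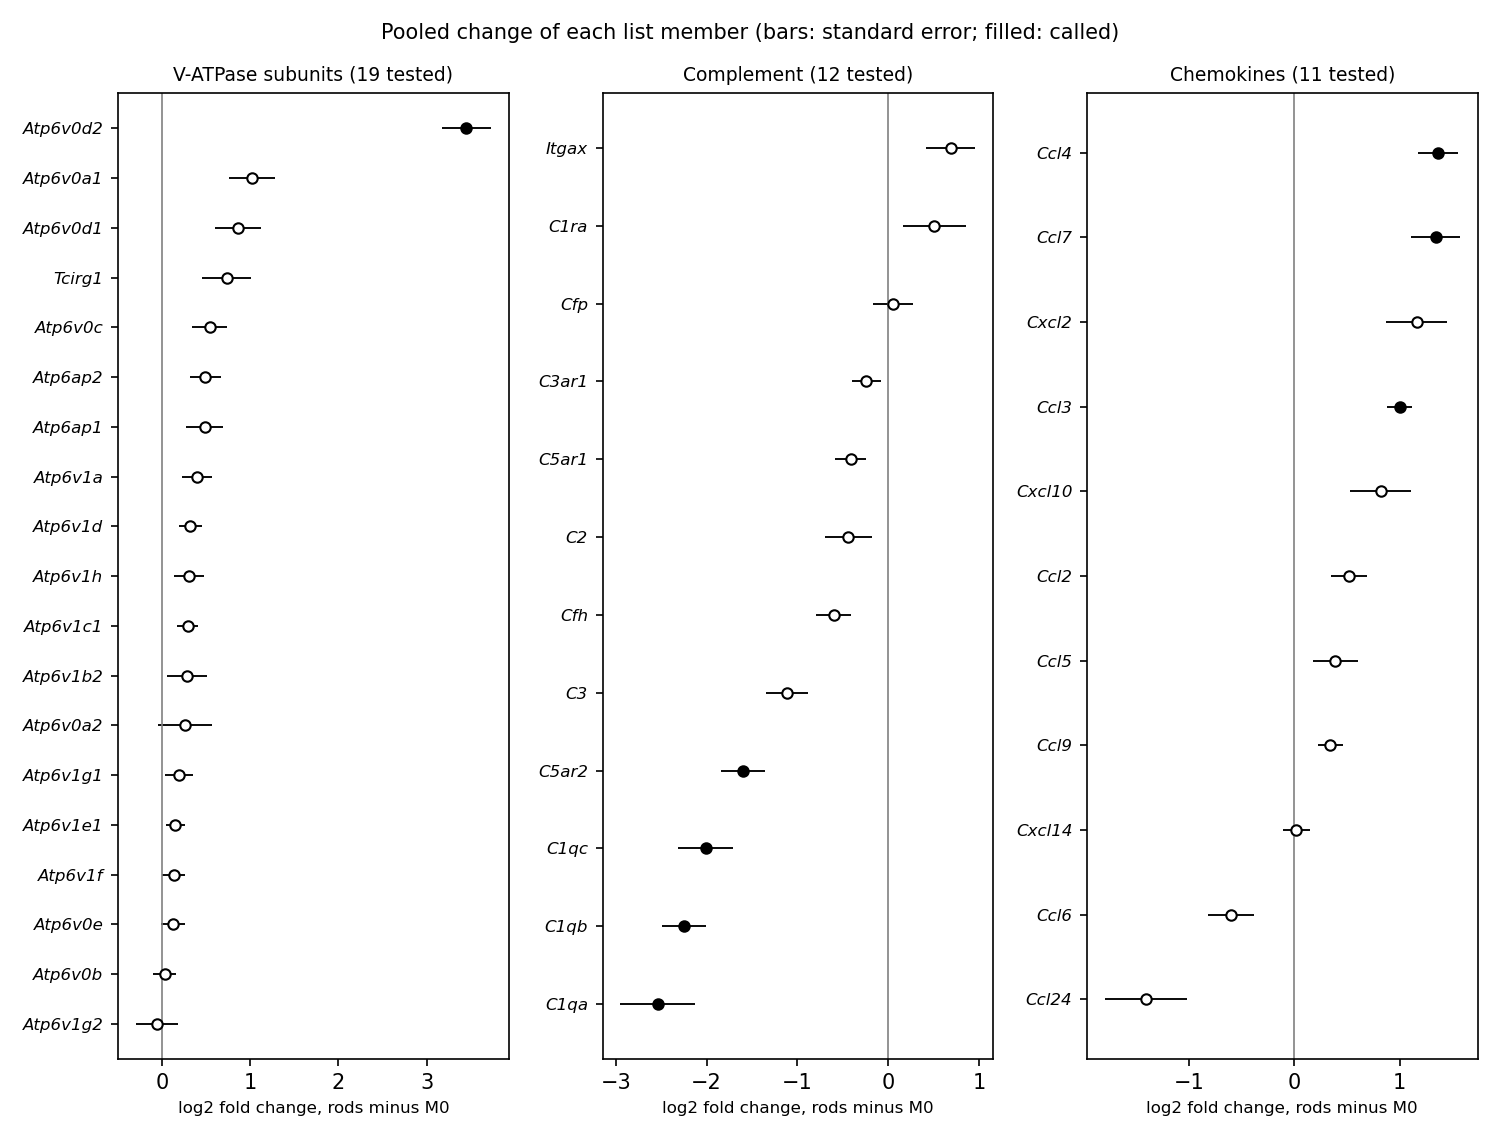
Pooled log2FC (rods minus M0, horizontal axis) of each tested V-ATPase subunit, complement gene and chemokine, with the SE as a bar and filled points for called genes. Atp6v0d2 at 3.45 stands apart from the other subunits, the 3 C1q genes and C5ar2 are at or below -1.60, and Ccl4, Ccl7 and Ccl3 are the called chemokines.

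Mmp12, the macrophage elastase, measured 1.07, 1.71 and 1.41 CPM in M0, 5.22, 4.13 and 4.82 CPM with CaP and 21.2, 14 and 17.2 CPM with SiO2. The 3 groups did not overlap. The pooled log2FC was 2.77 (SE 0.26, edgeR-adjusted p = 0.00414), with 1.83 for CaP and 3.71 for SiO2, and it was not called without M0 replicate 1 (edgeR-adjusted p = 0.0649). It was the one gene called of 15 matrix proteases and inhibitors, which had a median log2FC of 0.36. Lims2, an adaptor of integrin adhesions, measured 5.41 to 7.57 CPM in M0, 26 to 34.8 CPM with CaP and 27.1 to 32.8 CPM with SiO2. The rod types overlapped and both were above M0, with a log2FC of 2.12 (SE 0.19, edgeR-adjusted p = 0.0035), 2.11 for CaP and 2.14 for SiO2. The difference between the rods was -0.04 with a 95% interval from -0.45 to 0.38.

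Rgs1, which shortens signalling of chemokine receptors coupled to G proteins, measured 20.8, 30.4 and 25.6 CPM in M0, 111, 99.2 and 92.3 CPM with CaP and 64.4, 70.8 and 66 CPM with SiO2. All rod libraries were above M0 and the CaP libraries were highest, with a log2FC of 1.69 (SE 0.16, edgeR-adjusted p = 0.00414). Hcar2, a receptor for hydroxycarboxylic acids such as niacin, measured 3.6 to 6.78 CPM in M0 and 14 to 29 CPM with rods, a log2FC of 1.86 (SE 0.26, edgeR-adjusted p = 0.0233). Lat, an adaptor of antigen receptor signalling, measured 0.587 to 1.65 CPM in M0 and 3.41 to 7.67 CPM with rods, a log2FC of 2.43 (SE 0.36, edgeR-adjusted p = 0.0254). Hcar2 and Lat did not overlap between the groups, which the rule that named them required. Each was called in 3 of 9 repeats without 1 library, with adjusted p-values of 0.12 and 0.176 without M0 replicate 1.

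Among 17 cytokines and growth factors tested, 3 were called and all were higher. Il1rn encodes the antagonist that blocks the interleukin-1 receptor. It measured 10.5, 13.2 and 15.2 CPM in M0, 44.6, 85.6 and 73.5 CPM with CaP and 39.2, 40.7 and 39.6 CPM with SiO2. The groups did not overlap, and the log2FC was 2.02 (SE 0.23, edgeR-adjusted p = 0.00959), with 2.40 for CaP and 1.64 for SiO2. Without M0 replicate 1 its adjusted p was 0.0958. Gdf15, a stress-induced member of the TGF-beta family, measured 1.76, 2.04 and 2.12 CPM in M0 and 5.75 to 8.57 CPM with rods, with a median of 6.41. The groups did not overlap, with a log2FC of 1.83 (SE 0.21, edgeR-adjusted p = 0.00899), 1.97 for CaP and 1.69 for SiO2, and an adjusted p of 0.102 without M0 replicate 1. Spp1, which encodes osteopontin, a mineral-binding phosphoprotein, measured 4410 to 5470 CPM in M0, 9110 to 9820 CPM with CaP and 6020 to 6740 CPM with SiO2. Its log2FC was 0.65 (SE 0.11, edgeR-adjusted p = 0.0453), with 0.94 for CaP and 0.36 for SiO2, the latter below the fold threshold. Without M0 replicate 1 the adjusted p of Spp1 was 0.155, and its call was kept in 2 of the 9 repeats.

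Of 11 chemokines tested, Ccl3, Ccl4 and Ccl7 were called. Ccl3 and Ccl4 draw in monocytes and T cells, and Ccl7 is a monocyte chemoattractant that acts on CCR2. Ccl3 measured 104, 98.5 and 116 CPM in M0, 334, 306 and 272 CPM with CaP and 145, 142 and 155 CPM with SiO2. Ccl4 measured 113 to 203 CPM in M0, 513 to 636 CPM with CaP and 276 to 301 CPM with SiO2. Ccl7 measured 6.58 to 10.7 CPM in M0, 22 to 37.9 CPM with CaP and 12.6 to 14.5 CPM with SiO2. In all 3 the order was M0, SiO2 and CaP with no overlap between groups. The pooled log2FC values were 1.00 for Ccl3 (SE 0.12, edgeR-adjusted p = 0.0145), 1.36 for Ccl4 (SE 0.19, edgeR-adjusted p = 0.0228) and 1.34 for Ccl7 (SE 0.23, edgeR-adjusted p = 0.0471). The pooled values rest more on CaP, at 1.52, 1.85 and 1.96, than on SiO2, at 0.48, 0.86 and 0.71, and none of the SiO2 values passed on its own, with adjusted p-values of 0.359, 0.254 and 0.469. The calls of Ccl3, Ccl4 and Ccl7 were kept in 4, 3 and 1 of 9 repeats without 1 library, with adjusted p-values of up to 0.0958 without M0 replicate 1, 0.0885 without M0 replicate 3 and 0.296 without M0 replicate 1. Ccl2 was not called, with 187 to 235 CPM in M0 and 208 to 396 CPM with rods (log2FC 0.52, SE 0.17, edgeR-adjusted p = 0.164), nor was Tnf, with 19.5 to 36.3 CPM and 29.4 to 58.8 CPM (log2FC 0.70, SE 0.22, edgeR-adjusted p = 0.163). For both, the SiO2 and the M0 libraries overlapped, while all CaP libraries were above M0. The log2FC values of Ccl2 and Tnf were 0.75 and 0.97 for CaP and 0.29 and 0.43 for SiO2. Neither gene passed with CaP alone (edgeR-adjusted p = 0.118 and 0.123). The median of the 11 chemokines was 0.52, with 0.72 for CaP and 0.48 for SiO2.

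The genes that mark M1 and M2 polarization in the study were not among the called genes. Of the 4 that could be tested, edgeR and DESeq2 called 0, and 1 had an unadjusted p below 0.05. Il1b measured 0.827 to 1.29 CPM in M0 and 0.442 to 2.84 CPM with rods, and Arg1, the arginase of IL-4-treated cells, 8.56 to 14.9 CPM and 4.7 to 18.1 CPM. Both overlapped, with log2FC values of 0.45 (SE 0.55) and -0.39 (SE 0.24). Clec10a measured 14.3 to 16.9 CPM in M0 and 18.4 to 19.9 CPM with rods without overlap (log2FC 0.27, edgeR-adjusted p = 0.327). Ccl24 measured 0.667 to 1.06 CPM and 0.12 to 0.499 CPM, also without overlap (log2FC -1.41, SE 0.39, edgeR-adjusted p = 0.132). Il6 and Nos2 had too few counts to be tested.

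Adm and Ero1l from the list of hypoxia and glycolysis genes and Hilpda from that of lipid droplet genes were called higher. Adm, which encodes the vasodilator adrenomedullin, measured 10.4, 18.9 and 9.76 CPM in M0 and 30.4 to 57.8 CPM with rods, with a median of 44. Ero1l, the oxidase that drives disulfide formation (also named Ero1a), measured 168, 158 and 200 CPM in M0 and 330 to 463 CPM with rods, with a median of 377. Hilpda, a lipid droplet protein that inhibits triglyceride breakdown, measured 26 to 47.2 CPM in M0 and 70.6 to 101 CPM with rods. The groups did not overlap for any of these, and CaP and SiO2 libraries overlapped in each. The log2FC values were 1.74 for Adm (SE 0.27, edgeR-adjusted p = 0.0283), 1.14 for Ero1l (SE 0.15, edgeR-adjusted p = 0.0201) and 1.22 for Hilpda (SE 0.21, edgeR-adjusted p = 0.0416). They were called in 3, 3 and 2 of 9 repeats without 1 library, with adjusted p-values of 0.203, 0.12 and 0.179 without M0 replicate 1. Of the 30 hypoxia and glycolysis genes tested, Adm and Ero1l were called, the median log2FC was 0.51 (0.54 for CaP and 0.40 for SiO2), and 17 of the 18 with an unadjusted p below 0.05 were in the higher direction. The glucose transporter Slc2a1 had means of 187 CPM in M0, 490 with CaP and 369 with SiO2, and the lactate transporter Slc16a3 of 101, 476 and 189 CPM. DESeq2 called both, edgeR neither. Hk2, a hexokinase, went the other way with 296, 199 and 228 CPM and passed neither test.

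Ddit3 encodes CHOP, a transcription factor of the unfolded protein and integrated stress responses. It measured 11.6, 17.1 and 14.7 CPM in M0, 51.2, 39.6 and 50.7 CPM with CaP and 27.4, 27.7 and 29.5 CPM with SiO2, without overlap between any of the groups. The log2FC was 1.34 (SE 0.17, edgeR-adjusted p = 0.0175), with 1.72 for CaP and 0.97 for SiO2, and the call was kept in 3 of 9 repeats, with an adjusted p of 0.0958 without M0 replicate 1. Of 32 genes of these responses Ddit3 and Ero1l were called. The pseudokinase Trib3 (12.6 CPM in M0, 43.8 with CaP, 25 with SiO2), the phosphatase subunit Ppp1r15a (22.7, 50.5 and 40.2 CPM) and Atf3 (45.9, 74.5 and 65.2 CPM) were called by DESeq2 only. Calnexin (Canx), a chaperone of the endoplasmic reticulum, measured 1420, 721 and 825 CPM, and its log2FC of -0.88 (SE 0.19) was called by DESeq2 only. The median of the list was 0.14.

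NRF2-responsive genes are induced by oxidants. Of 24 tested, edgeR called 0, DESeq2 1 and 6 had an unadjusted p below 0.05 (4 higher and 2 lower). The median log2FC of the list was 0.26. Its summed level, which its most counted members weigh most, was 12800 to 20500 CPM in M0 and 21100 to 26000 CPM with rods, without overlap. Hmox1, heme oxygenase, measured 55, 111 and 82.3 CPM in M0 and 142 to 209 CPM with rods. The groups did not overlap, and the log2FC of 0.99 (SE 0.21) had an adjusted p of 0.0801 from edgeR and 0.00233 from DESeq2. In the repeats without 1 library its adjusted p ranged from 0.031 to 0.284, and it was called in 1 of 9. Fth1, the ferritin heavy chain that stores iron, had means of 5360 CPM in M0, 8040 with CaP and 8550 with SiO2, and its log2FC was 0.63 (SE 0.17), which was not called.

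The called complement genes were all lower. C1qa, C1qb and C1qc encode the 3 chains of C1q. C1qb measured 13.5, 27.1 and 24.7 CPM in M0, 3.24, 3.33 and 4.04 CPM with CaP and 5.4, 7.29 and 4.78 CPM with SiO2. All rod libraries were below M0 and all CaP libraries below SiO2. C1qa measured 2.27, 6.52 and 2.82 CPM in M0 and 0.312 to 1.39 CPM with rods, and C1qc 1.71, 3.09 and 2.12 CPM and 0.2 to 0.803 CPM, again without overlap. The log2FC values were -2.54 for C1qa (SE 0.41, edgeR-adjusted p = 0.0368), -2.25 for C1qb (SE 0.24, edgeR-adjusted p = 0.00653) and -2.01 for C1qc (SE 0.30, edgeR-adjusted p = 0.0276). For CaP alone the values were -3.15, -2.60 and -2.39, and for SiO2 alone -1.94, -1.90 and -1.63. C1qb was called in every repeat without 1 library (adjusted p at most 0.0426), whereas C1qa and C1qc were called in 2 of 9, with adjusted p-values of 0.111 and 0.0985 without CaP replicate 3. C1qa and C1qc rest on few reads, at most 99 and 64 counts in any library.

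C5ar2, a receptor of the C5a fragment that does not couple to G proteins, measured 63.6, 31.6 and 43 CPM in M0 and 8.37 to 21.1 CPM with rods. The groups did not overlap, the log2FC was -1.60 (SE 0.24, edgeR-adjusted p = 0.028), and without M0 replicate 1 the adjusted p was 0.156. Of 12 complement genes tested 4 were called, and the median log2FC was -0.52 (-0.68 for CaP and -0.48 for SiO2). C3, the central component, had means of 10.6 CPM in M0, 5.33 with CaP and 4.77 with SiO2, a log2FC of -1.11 (SE 0.23) that DESeq2 called and edgeR did not. The summed level of the list was 440 to 597 CPM in M0 and 339 to 468 CPM with rods.

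Receptors and lineage genes of macrophages and monocytes were also among the lower genes. Aif1, which encodes the actin-bundling protein IBA1, measured 22.4, 24.6 and 27.5 CPM in M0 and 5.75 to 9.77 CPM with rods, with a median of 6.83. Ccr2, the receptor of CCL2 and CCL7, measured 17.3, 11.9 and 16.6 CPM in M0 and 2.2 to 5.39 CPM with rods, with a median of 4.15. Tgfbi, a secreted matrix protein induced by TGF-beta, measured 18, 18.8 and 18 CPM in M0 and 3.43 to 6.67 CPM with rods. In all 3 genes both rod types lay below M0 without overlap and the rod types overlapped with each other. The log2FC values were -1.78 for Aif1 (SE 0.20, edgeR-adjusted p = 0.00886), -1.98 for Ccr2 (SE 0.26, edgeR-adjusted p = 0.0177) and -1.70 for Tgfbi (SE 0.20, edgeR-adjusted p = 0.00968). Aif1, Ccr2 and Tgfbi were called in 8, 3 and 7 of 9 repeats, with adjusted p-values of 0.0649, 0.113 and 0.0867 without M0 replicate 1 and, for Tgfbi, 0.0621 without SiO2 replicate 1.

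Mrc1, the mannose receptor CD206, measured 2.21, 1.19 and 2.23 CPM in M0 and 0.297 to 0.763 CPM with rods, a log2FC of -1.91 (SE 0.34, edgeR-adjusted p = 0.048). It rests on few reads, 6 to 19 counts in the rod libraries, and passed with neither rod alone (edgeR-adjusted p = 0.0714 for CaP and 0.251 for SiO2). Clec4a3, a C-type lectin receptor, measured 12.1 to 15.3 CPM in M0 and 4.67 to 8.21 CPM with rods, a log2FC of -1.15 (SE 0.18, edgeR-adjusted p = 0.0284). Neither overlapped between rods and M0, and each was called in 2 of 9 repeats, with adjusted p-values of 0.362 and 0.133 without M0 replicate 1. Of 11 macrophage-defining genes tested Aif1 alone was called, with a list median of -0.10, and the list's summed level was 3610 to 4880 CPM in M0 and 4060 to 4470 CPM with rods. Itgam (CD11b) had means of 33.6, 17 and 21.4 CPM in M0, CaP and SiO2 and was called by DESeq2 only. The master regulator Spi1 (PU.1) had means of 83.2, 121 and 126 CPM and was not called. Of the 25 phagocytic and scavenger receptors tested, Mrc1 was the one called, and the list median was -0.07.

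Of the 16 alveolar macrophage identity genes tested, 2 were called higher (Atp6v0d2 and Ctsk) and 2 lower, with Mrc1 among the latter. The transcription factors Bhlhe40 and Maf are part of this list, and neither was called by edgeR, while DESeq2 called both. Bhlhe40 had means of 22.6, 58.7 and 57 CPM in M0, CaP and SiO2, and Maf of 1.09, 0.21 and 0.452 CPM.

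**Figure D3:**
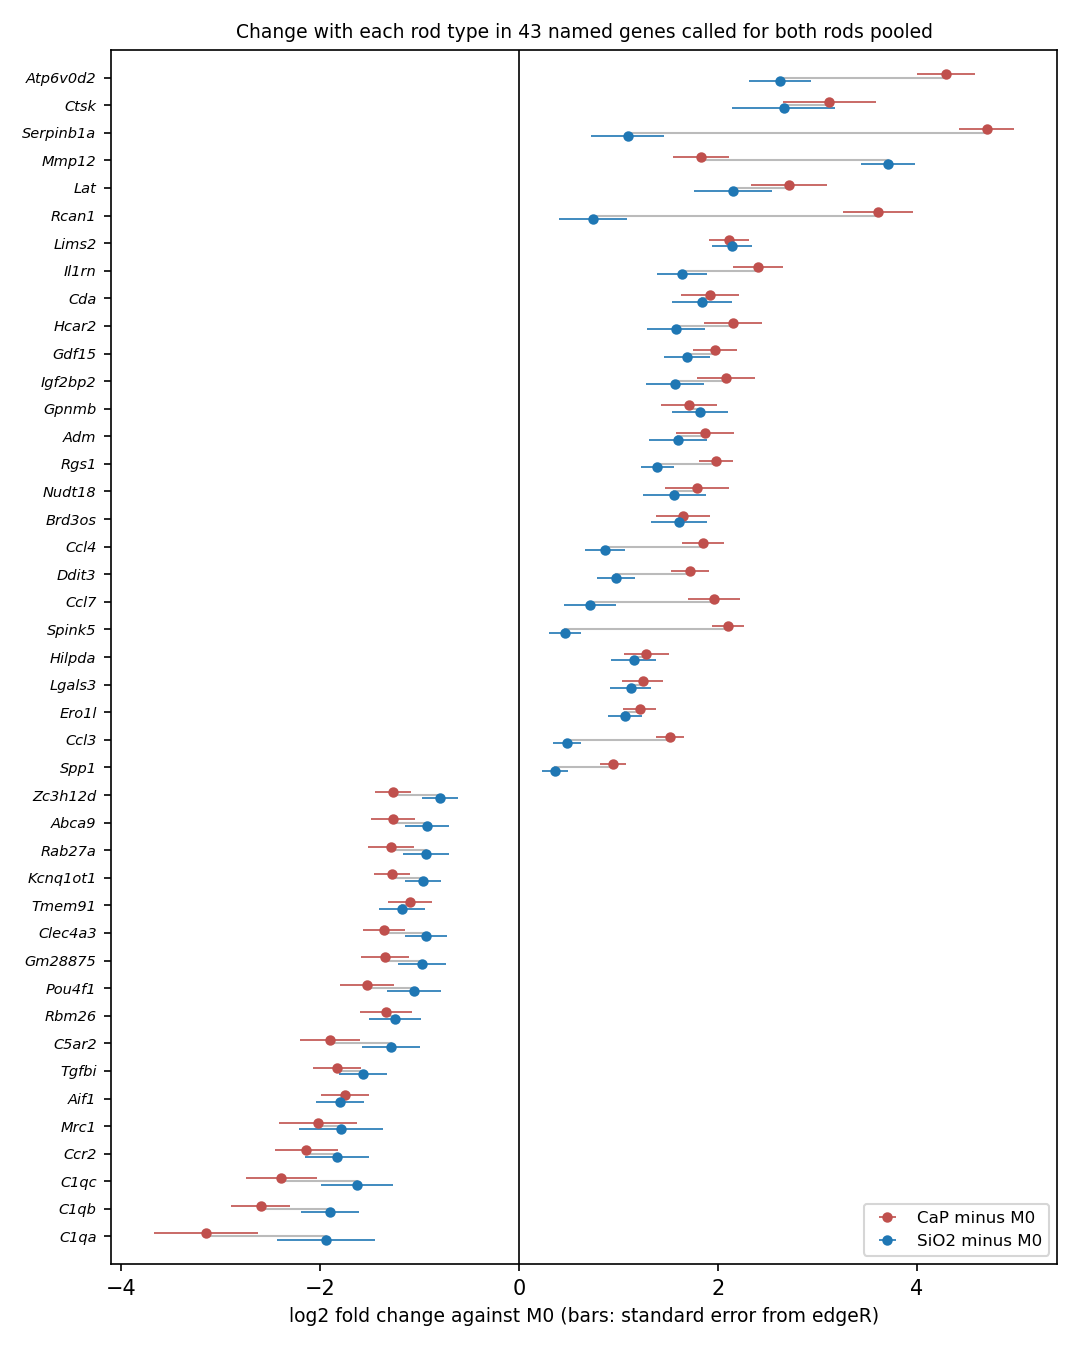
Log2FC against the same 3 M0 libraries with CaP and with SiO2 (horizontal axis, bars are standard errors from edgeR) for 43 of the named genes called with both rods pooled. In all of them both points lie on the same side of 0, and the widest gaps are those of Serpinb1a, Rcan1, Mmp12, Atp6v0d2 and Spink5.

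The rods were then compared with each other in the same fit, which the M0 libraries enter through the gene filter and the shared estimate of the spread. Of the 16621 genes 4 were called (0.0241%), 310 had an unadjusted p below 0.05, and DESeq2 called 16. All 4 were among the 86. The 310 are fewer than an unadjusted p below 0.05 gives when no gene differs, so this contrast may be conservative. Few calls between the rods therefore do not show that the rods act alike, and the reason was not tested. Serpinb1a, an inhibitor of neutrophil proteases, measured 0.293 to 0.47 CPM in M0, 8.99 to 9.56 CPM with CaP and 0.562 to 0.92 CPM with SiO2, a log2 difference of CaP minus SiO2 of 3.61 (SE 0.25, edgeR-adjusted p = 9.63e-04). Rcan1, a feedback inhibitor of calcineurin, measured 4.47 to 6.32 CPM in M0, 34.2, 73.8 and 80.9 CPM with CaP and 7.55 to 10.4 CPM with SiO2, a difference of 2.87 (SE 0.33, edgeR-adjusted p = 0.0388). Spink5, a serine protease inhibitor, measured 6.82 to 7.26 CPM in M0, 27.6 to 32.4 CPM with CaP and 9.28 to 10.4 CPM with SiO2, a difference of 1.64 (SE 0.16, edgeR-adjusted p = 0.011). Mmp12 was the 1 gene of the 4 that was higher with SiO2, with a difference of -1.87 (SE 0.23, edgeR-adjusted p = 0.0478). In all 4 genes the 3 groups were free of overlap, so the pooled log2FC values of 2.89 (Serpinb1a), 2.17 (Rcan1), 1.28 (Spink5) and 2.77 (Mmp12) average unequal parts. For Serpinb1a, Rcan1 and Spink5 the values against M0 were 4.7, 3.61 and 2.1 with CaP and 1.09, 0.74 and 0.46 with SiO2. None of these SiO2 values passed on its own (edgeR-adjusted p = 0.433, 0.545 and 0.458), and that of Spink5 was below the fold threshold. Without 1 library this contrast had between 1 and 3 called genes, with 1 each without CaP replicate 2, CaP replicate 3 or any SiO2 library, and 2 each without M0 replicate 2 or 3. The pooled call was lost without M0 replicate 1 for Serpinb1a (edgeR-adjusted p = 0.0958) and Spink5 (0.0867, and 0.0537 without M0 replicate 3), and was kept for Rcan1 in 3 of 9 repeats, with an adjusted p of up to 0.197.

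The other called genes did not pass the test between the rods. A pooled call does not mean that SiO2 passed against M0 on its own. Among the named called genes, Atp6v0d2, Lims2, Mmp12, Rgs1, Gdf15 and Aif1 passed with SiO2 alone (edgeR-adjusted p 0.00231 to 0.049). The rest did not, with 0.0723 for C1qb, Il1rn and Gpnmb, 0.126 for Lgals3 and 0.545 for Rcan1. Of the 86 called genes, 63 had the larger change with CaP and 23 with SiO2, with a median difference of 0.26 on the log2 scale towards CaP. At an unadjusted p below 0.05 for CaP minus SiO2 there were 21, of which 19 were larger with CaP. Ccl3 was the fifth gene by p in this contrast, with a difference of 1.04 (SE 0.14, edgeR-adjusted p = 0.0785), and Atp6v0d2 had a difference of 1.67 (SE 0.23, edgeR-adjusted p = 0.0946). Small differences were measured with wide intervals. For Gpnmb the difference was -0.11 with a 95% interval from -0.72 to 0.50, for Lgals3 0.12 (-0.34 to 0.58), for Aif1 0.06 (-0.49 to 0.60), for Hilpda 0.12 (-0.38 to 0.62) and for Cda 0.08 (-0.48 to 0.65), so the data limit the difference between the rods to these ranges and do not show that the rods act alike.

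The promoter sequences of 4 of the responding genes are shown because they carry letters of factors known for macrophage activation and lysosome genes. AP-1, a dimer of FOS and JUN proteins induced by stress, binds TGANTCA, and the MITF family, which drives genes of the lysosome and of osteoclasts, binds the M-box TCATGTG or CATGTGA. The 200 bases before 1 RefSeq start site of each gene are printed for assembly GRCm38.p6, with motif letters of either strand in capitals. Il1rn lies at chr2:24336660-24336859 on the plus strand, Mmp12 at chr9:7347174-7347373 on the plus strand, Rcan1 at chr16:92400079-92400278 on the minus strand and C1qc at chr4:136892915-136893114 on the minus strand.
Il1rn: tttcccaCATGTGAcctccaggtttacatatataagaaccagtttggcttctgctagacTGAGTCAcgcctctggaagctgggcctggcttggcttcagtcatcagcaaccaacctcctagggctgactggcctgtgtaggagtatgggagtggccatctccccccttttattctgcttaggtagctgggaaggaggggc
Mmp12: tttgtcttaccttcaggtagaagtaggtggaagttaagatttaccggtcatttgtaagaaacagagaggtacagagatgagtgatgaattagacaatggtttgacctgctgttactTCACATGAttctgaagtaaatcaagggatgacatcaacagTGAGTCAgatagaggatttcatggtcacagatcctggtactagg
Rcan1: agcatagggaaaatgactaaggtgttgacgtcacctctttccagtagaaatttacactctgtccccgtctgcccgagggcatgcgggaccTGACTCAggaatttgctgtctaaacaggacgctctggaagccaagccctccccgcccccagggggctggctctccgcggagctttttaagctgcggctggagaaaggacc
C1qc: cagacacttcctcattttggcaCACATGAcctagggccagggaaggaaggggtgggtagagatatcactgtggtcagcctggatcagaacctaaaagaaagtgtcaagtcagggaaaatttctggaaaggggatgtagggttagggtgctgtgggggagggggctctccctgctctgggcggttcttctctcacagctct
The AP-1 letters stand in Il1rn, Mmp12 and Rcan1, which were higher with rods, and M-box letters in Il1rn, Mmp12 and in C1qc, which was lower. In Mmp12 both M-box spellings overlap in 1 run of capitals. Over the 11586 windows of 300 bases for tested genes, 5.13% held the AP-1 letters and 3.81% those of the M-box. The genes shown were chosen after their letters were seen, and a match is a description of the sequence. A window was found by symbol or synonym for 59 of the 86 called genes and by symbol alone for 9133 of the 16621 tested. These counts follow unlike rules, and they are too few for a comparison of called with other genes.

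The other genes named by rule were of mixed roles. On the higher side were Cda, the cytidine deaminase of nucleotide salvage (0.705 to 2.24 CPM in M0 and 5.25 to 6 CPM with rods), Igf2bp2, an mRNA-binding protein (2.7 to 4.81 and 9.8 to 20.3 CPM), Nudt18, a hydrolase of oxidized nucleotides (3.23 to 4.28 and 8.21 to 18 CPM) and the noncoding Brd3os (1.49 to 2.44 and 4.47 to 6.94 CPM). Their log2FC values lay between 1.63 and 1.88. On the lower side were Zc3h12d, an RNase of the regnase family (36 to 49.8 CPM in M0 and 16.1 to 27.7 CPM with rods), Rab27a, a GTPase of secretory lysosomes (33.2 to 61.7 and 18 to 27.4 CPM), Abca9 (11.3 to 13.7 and 4.51 to 7.15 CPM), Tmem91 (7.84 to 10.1 and 3.45 to 5.46 CPM), Rbm26 (10.2 to 16.4 and 4.79 to 7.46 CPM), the neuronal transcription factor gene Pou4f1 (7.84 to 14.3 and 3.35 to 6.67 CPM), Gm28875 (420 to 757 and 185 to 358 CPM) and Kcnq1ot1 (20.4 to 26.4 and 8.78 to 13.4 CPM). Their log2FC values lay between -1.30 and -1.03. Kcnq1ot1 and Brd3os overlap or adjoin a gene of the other strand, and Smart-seq2 reads do not mark strand, so the gene that gave the reads cannot be told apart there. The calls of these 12 genes were kept in 1 to 3 of 9 repeats without 1 library, with adjusted p-values of 0.0958 to 0.32 without M0 replicate 1.

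The rule did not name 42 of the called genes, 29 higher (log2FC 0.70 to 3.12) and 13 lower (-2.31 to -0.84). Those singled out here were chosen after their values were seen. Lilr4b, an immunoglobulin-like receptor, had the smallest p of all genes, with 24.7 to 29.6 CPM in M0, 90 to 90.6 CPM with CaP and 69.7 to 77.5 CPM with SiO2 (log2FC 1.57, SE 0.13, edgeR-adjusted p = 0.00293), but a close paralog may share its reads and its value is uncertain. Pla2g2e, a secreted phospholipase, measured 2.45 to 3.64 CPM in M0 and 6.26 to 8.15 CPM with rods, and Rhoc, a GTPase of the cytoskeleton, 78.9 to 131 and 179 to 259 CPM. Itgal, the alpha chain of LFA-1, measured 3.76 to 5.2 and 1.24 to 2.06 CPM, and P2ry12, an ADP receptor, 1.41 to 2.04 and 0.437 to 0.991 CPM. The mitochondrial gene mt-Cytb, a subunit of respiratory complex III, measured 5760 to 7200 CPM in M0 and 2640 to 3940 CPM with rods, a log2FC of -0.92 (edgeR-adjusted p = 0.025). It was the one called of 29 mitochondrially encoded genes tested, of which 26 had a log2FC below 0, with a median of -0.29.

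**Figure D4:**
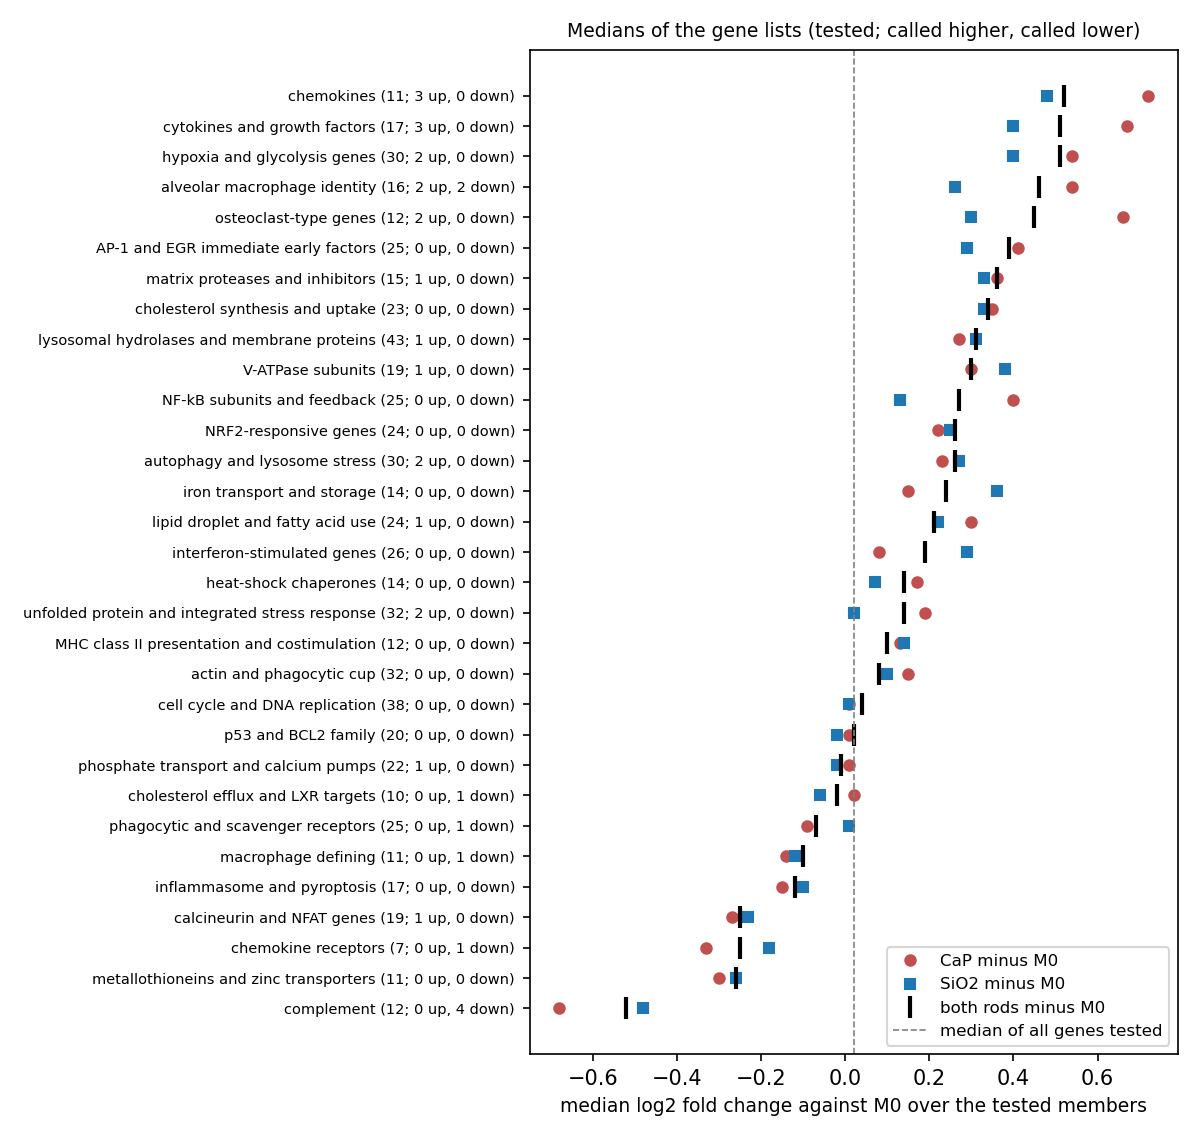
Median log2FC against M0 (horizontal axis) over the tested members of the 31 gene lists with 7 or more tested members, for CaP, SiO2 and both rods pooled, with the numbers tested, called higher and called lower beside each name. Chemokines (0.52), cytokines and growth factors (0.51) and hypoxia and glycolysis genes (0.51) are highest and complement (-0.52) is lowest, and the dashed line is the median of all genes (0.02).

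Of 38 gene lists, 18 had a called member. In 10 of them the call was 1 gene. Over all 16621 genes tested, 2840 had an unadjusted p below 0.05 and DESeq2 called 640. Whether a list below exceeds these shares was not tested. Of 23 cholesterol synthesis and uptake genes edgeR called 0 and DESeq2 2, with 10 at an unadjusted p below 0.05 and a median of 0.34. Mvd and Mvk, enzymes of the mevalonate pathway, were the 2, with log2FC values of 1.16 and 0.95. Of 25 AP-1 and EGR immediate early factors edgeR called 0 and DESeq2 5, with 13 at an unadjusted p below 0.05. Of these 13, 9 were in the higher and 4 in the lower direction, and of the 5 called by DESeq2 4 were higher and 1 lower. Among them Junb had means of 41.5, 233 and 102 CPM in M0, CaP and SiO2, Ier3 of 10.5, 59.9 and 35.7 CPM, and Klf4, the 1 lower, of 11, 5.88 and 6.53 CPM. Of 25 NF-kB subunits and feedback genes edgeR called 0 and DESeq2 1 (5 at an unadjusted p below 0.05), of 26 interferon-stimulated genes 0 and 3 (6), of 17 inflammasome and pyroptosis genes 0 and 1 (6), of 12 MHC class II and costimulation genes 0 and 1 (1), and of 38 cell cycle genes 0 and 3 (7). Actin and phagocytic cup genes had 0 called by edgeR and 3 by DESeq2 of 32 (6 at an unadjusted p below 0.05), with a summed level of 49500 to 86300 CPM in M0 and 33800 to 54100 CPM with rods and a median of 0.08.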

How the data were processed

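RNA of MH-S cells was made into Smart-seq2 libraries, which amplify cDNA without molecular identifiers and do not mark strand. The authors processed paired reads with nf-core/rnaseq, STAR and Salmon on the mouse assembly GRCm39 with Ensembl genes and deposited 1 table of whole-number counts per gene, without normalization. The counts may be rounded Salmon estimates, and reads of near-identical genes were divided in that step. The 78317 identifiers were named with GENCODE M21, which gave 51487 a symbol, and 9.05% of the tested genes had none. All columns were mapped by name and 0 were left unused.

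In R 4.3.3 the 9 libraries were scaled with TMM and filtered with filterByExpr, and edgeR 4.0.16 fitted CaP, SiO2 and M0 as separate groups by quasi-likelihood. The pooled contrast was the mean of CaP and SiO2 minus M0, so that a difference between the rods did not enter the spread, and CaP minus SiO2 was tested in the same fit. DESeq2 1.42.0 was the main alternative. P-values were adjusted by Benjamini-Hochberg over all genes tested. A group with at most 3 counts in every library was taken to be at a floor. Intervals and floors cover counting error or model error only, and low genes were measured least precisely in the smallest library.

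Genes were named if they were among the 15 largest changes in each direction (called, without overlap and averaging 5 CPM or more in the rods or M0), called members of the 38 gene lists, the 5 called genes with the smallest p between the rods, or genes the study text names and its 6 polarization markers. The comparison, lists and rule were chosen with earlier results of these data known. The fits were tested on simulated data. Replicate numbers were not treated as pairs, since the labels state no pairing. Correlations of deviations between libraries of 1 number ranged from -0.54 to 0.61. They were 0.53, 0.49 and 0.35 for number 1, so they do not show that the numbers are unrelated. Replicates differed by more than sampling noise (chi-square per gene from 14.4 to 168) and were counted separately. The M1 and M2 libraries entered only the alternative fit of 15 libraries. Promoter windows were RefSeq's for GRCm38.p6, matched by symbol, and by symbol or synonym where called genes with a window were counted. The deposited table gives no coordinates, and none were converted. Results for a few genes are not reported here.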

Additional observations from a re-analysis of the deposited data

Results flagged for a closer look

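Among the 44 named called genes, 3 had 1 rod library apart from the others by Dixon's test at the 95% level, which flags about 1 in 20 groups by chance. Tgfbi was lowest in CaP replicate 1 at 3.43 CPM, with a gap of 0.678 of the range, and without that library its call was kept. Gpnmb was lowest in CaP replicate 1 at 176 CPM, with a gap of 0.628, and its call was kept without it. Lgals3 was highest in CaP replicate 3 at 2210 CPM, with a gap of 0.72, and without that library it was no longer called. In each case the library stayed on the same side of M0 as the other rod libraries.

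The response to the 2 rod types differed, by the test of CaP minus SiO2 in edgeR, for Serpinb1a (3.61 on the log2 scale), Rcan1 (2.87), Spink5 (1.64) and Mmp12 (-1.87, higher with SiO2). The M0 libraries enter this test through the gene filter and the shared spread.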

How the results depend on the processing

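Counts of called genes are given in the order all, higher, lower, free of overlap, and between CaP and SiO2, and were 86, 55, 31, 85 and 4. DESeq2 gave 640, 300, 340, 529 and 16, no filter on low counts 188, 87, 101, 154 and 8, and the replicate block 18, 15, 3, 18 and 1. The labels state no pairing by replicate number. Thinning to the smallest library gave 54, 35, 19 and 54, and all 15 libraries in the fit 144, 77, 67 and 140. With at least 10 counts in every library 2 genes were called between the rods. With M0 replicate 3 and SiO2 replicate 2 both left out the numbers were 9, 8, 1, 9 and 1. Leaving out 1 library gave ranges of 5 to 389, 4 to 242, 1 to 232, 5 to 377 and 1 to 3. The cause was not tested, apart from the smaller number of libraries or genes that some of these settings imply. DESeq2's size factors (76 called), the legacy (77) and the robust (84) quasi-likelihood and the fit without a rod term (86) stayed within 1.5 times. Of 1009 recomputed values of 51 named genes, 676 kept their side of the threshold, 330 of called genes lost it, 3 of others gained it and 0 changed sign. For the called genes a kept sign largely follows from their lack of overlap between rods and M0. Atp6v0d2, Lims2 and C1qb were called in every setting in which they were tested. The mitochondrial share kept its direction without each library in turn.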
